A study of Mus musculus with 18 samples.

Results

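Eomes, Btg2, Gadd45g, Mfng and Hes6 are genes known as markers of basal progenitors, and their transcript levels were compared in the embryonic cortex of mice with 2, 1 or no intact copies of Insm1. The markers were taken by gene symbol, with earlier results of these data known. Each was read by 1 transcript-level probe set, so 5 of the 16661 probe sets with an identifier of 6700000 or above are described. RNA came from the dorsal telencephalon, the part of the forebrain that forms the neocortex, at E13.5 (embryonic day 13.5). There were 8 wildtype embryos, 6 embryos heterozygous for an Insm1 knockout and 4 homozygous embryos, with 1 whole-transcript array per embryo. The design text gives the search for target genes of Insm1, a zinc finger transcription factor of new neurons and endocrine cells, as the purpose. The labels used here do not name the strain, the sex, the litters or the part of Insm1 that was removed. Whether embryos of a genotype were littermates is not stated, and p-values measure only the spread between these animals.

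Basal progenitors, also called intermediate progenitors, are born from the apical progenitors that line the ventricle, divide away from the ventricle in the subventricular zone and mostly give rise to neurons. Their birth goes with lower Notch signalling, an exit from the apical surface and the onset of neurogenic genes. Insm1 is itself expressed in these cells and is known from mouse work for promoting their formation. In a whole tissue sample such as this, fewer cells of a type and less RNA per cell cannot be told apart.

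The values are log2 signals, on which a difference of 1 is a 2-fold change. Levels are not compared between genes, because each probe set has its own response. Insm1 stood at 5.34 ± 0.34 (SD, n = 8) in wildtype embryos. It stood at 4.77 ± 0.39 (SD, n = 6) with 1 mutant copy and at 3.31 ± 0.34 (SD, n = 4) with 2. The cortical factors Lhx2, Emx2 and Pax6 had wildtype means of 9.37, 6.47 and 6.18. The mean over 10 measured genes of the ventral telencephalon and its interneurons lay between 1.69 and 2.45 in all groups, and these levels are not set against each other. Array 75th percentiles were 4.67 to 4.87, apart from heterozygous replicate 6 at 4.50. That embryo and homozygous replicate 2 also stood apart in 10 hypoxia response genes, whose mean was 4.85 and 4.87 in them and between 3.26 and 3.62 in the other 16 embryos. Values without both embryos are given beside those from all arrays for many of the results that depended on them. Where they are not given, the value may have changed as well.

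The stretch before the transcription start is shown for the 2 markers with the largest lower and higher means in homozygous embryos, Eomes (lower mean) and Gadd45g (higher mean). The sequences are from RefSeq on GRCm38.p6, 250 bases each, 5′ to 3′ on the strand of the gene. The Eomes stretch is chr9:118477939-118478188 and the Gadd45g stretch is chr13:51846425-51846674, both on the plus strand. Capitals mark E-boxes, CANNTG, the core sequence of proneural and Hes-related basic helix-loop-helix factors. The search also covered TGGGAA, the core of the Notch effector Rbpj, and both strands were read for both motifs. No stretch of a marker held both motifs, so no matches overlapped.
Eomes: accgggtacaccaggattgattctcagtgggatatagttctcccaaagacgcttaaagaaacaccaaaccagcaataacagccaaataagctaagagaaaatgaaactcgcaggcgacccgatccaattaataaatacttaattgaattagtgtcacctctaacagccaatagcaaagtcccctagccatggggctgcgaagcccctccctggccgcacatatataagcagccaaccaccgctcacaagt
Gadd45g: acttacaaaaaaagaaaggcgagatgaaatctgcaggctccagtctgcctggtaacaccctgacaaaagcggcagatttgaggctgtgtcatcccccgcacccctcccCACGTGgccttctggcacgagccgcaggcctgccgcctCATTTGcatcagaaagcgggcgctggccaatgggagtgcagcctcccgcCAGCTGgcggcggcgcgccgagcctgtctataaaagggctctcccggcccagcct
The Eomes stretch held neither motif. The Gadd45g stretch held 3 E-boxes and no TGGGAA. Of 32851 stretches of this length in the table, 66.2% held an E-box and 21.6% held TGGGAA. Sequences were found for 4 of the 5 markers. Btg2 had no E-box and 1 TGGGAA on the reverse strand, and the stretches before the alternative starts of Hes6 held 1 and 3 E-boxes and no TGGGAA. These matches describe the letters in the window and do not show binding.

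The first comparison, homozygous against wildtype, addressed the loss of both copies. None of the 5 passed the test over all probe sets (limma, adjusted p under 0.05), against 0.564% of all probe sets (84, or 0.504%, lower and 10, or 0.06%, higher). That split depended on the scale of the arrays, with 74 lower and 84 higher after a further quantile normalization, and 67 lower and 75 higher after centring each array on its median. At an unadjusted p under 0.05 there were 3 markers, Eomes and Mfng with a lower mean and Gadd45g with a higher one, against 15.3% of all probe sets. The mean was lower in 4 of the 5, with a median log2 difference of -0.19, beside 59.1% with a lower mean and a median of -0.03 over all probe sets. In Eomes and Mfng all homozygous embryos lay below all wildtype embryos, which held for 2.21% of all probe sets.

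**Figure D1:**
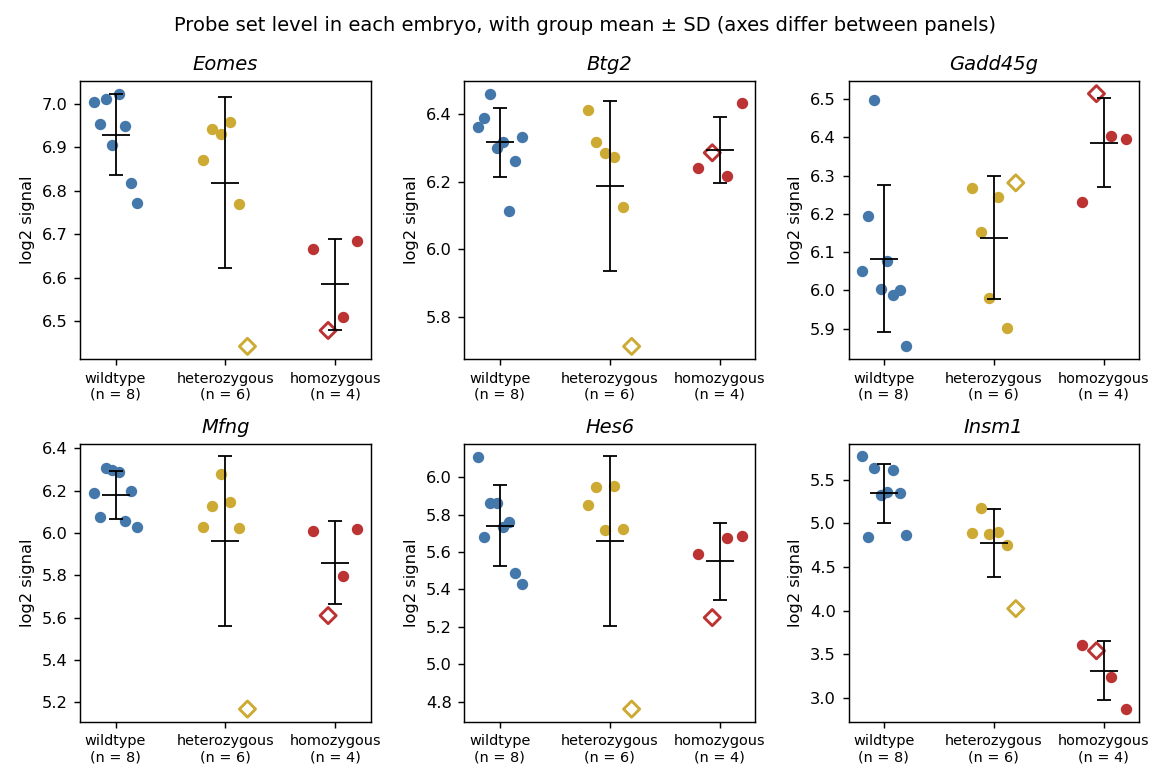
Log2 signal of the 5 markers and of Insm1 in each embryo, by genotype. Points are embryos, bars are the group mean ± SD, and open diamonds mark heterozygous replicate 6 and homozygous replicate 2. All 4 homozygous embryos lie below all 8 wildtype embryos in Eomes, Mfng and Insm1.

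Among the transcription factors, Eomes encodes the T-box factor (also called Tbr2) that defines basal progenitors in the cortex. Its homozygous values were 6.67, 6.48, 6.51 and 6.68. The wildtype embryos ran from 6.77 to 7.02 with a median of 6.95, so the groups did not overlap. The heterozygous embryos ran from 6.44 to 6.96 with a median of 6.90, and 5 of the 6 lay within or just under the wildtype range, the other being replicate 6. The homozygous level was 78.8% of wildtype, a log2 difference of -0.34 (SE 0.08, 95% interval -0.52 to -0.17, limma adjusted p = 0.061). This lies just outside the threshold, and its unadjusted p ranked 172 among the 16661 probe sets.

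The call of Eomes changed with the arrays and the model used. Without heterozygous replicate 6 the difference of the means was the same and the adjusted p was 0.00864, since that embryo enters only through the pooled spread. Without both embryos that stood apart, the difference was -0.31 (SE 0.07, limma adjusted p = 0.0476). Without homozygous replicate 2 alone it was also -0.31, with an adjusted p of 0.21 in limma. Over 34 other settings the difference ranged from -0.44 to -0.25, the adjusted p in limma from 0.00864 to 0.21, and 7 settings called it. These include the same fit read at a threshold of 0.1 (limma adjusted p = 0.061) and the fit with a replicate block.

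Hes6 encodes an atypical member of the Hes family that counters Hes1 and favours neuronal differentiation. Its homozygous values were 5.59, 5.25, 5.67 and 5.68. The wildtype embryos ran from 5.43 to 6.11 with a median of 5.75, and 3 homozygous embryos lay inside that range. The heterozygous embryos ran from 4.76 to 5.95 with a median of 5.79. The log2 difference of homozygous from wildtype embryos was -0.19 (SE 0.18, 95% interval -0.56 to 0.18, limma adjusted p = 0.67). Without both embryos that stood apart it was -0.09 (SE 0.11, limma adjusted p = 0.79).

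Mfng encodes Manic fringe, a glycosyltransferase that modifies Notch receptors and so changes their response to ligands. Its homozygous values were 6.01, 5.61, 5.80 and 6.02. The wildtype embryos ran from 6.03 to 6.30 with a median of 6.20, so that the groups were separate by a narrow margin. The heterozygous embryos ran from 5.17 to 6.28 with a median of 6.08. The homozygous level was 80.1% of wildtype, a log2 difference of -0.32 (SE 0.15, 95% interval -0.63 to -0.01, limma adjusted p = 0.31). Without heterozygous replicate 6 the same difference had an SE of 0.08 and passed the test (limma adjusted p = 0.0464), and without homozygous replicate 2 as well it was -0.24 (limma adjusted p = 0.19). With the 75th percentile of each array or the hypoxia list as a covariate it shrank to -0.14 in both fits (limma adjusted p = 0.62 and 0.65).

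The last 2 markers belong to families of growth arrest genes. Gadd45g encodes a stress and growth arrest protein that is on briefly in cells leaving the cycle to become neurons. Its homozygous values were 6.23, 6.51, 6.40 and 6.40. The wildtype embryos ran from 5.85 to 6.50 with a median of 6.03, and replicate 3 (6.50) was the only one of them above the lowest homozygous embryo. The heterozygous embryos ran from 5.90 to 6.28 with a median of 6.20. The homozygous level was 1.23-fold that of wildtype, a log2 difference of 0.30 (SE 0.10, 95% interval 0.09 to 0.51, limma adjusted p = 0.15). Without wildtype replicate 3 it was 0.36 (SE 0.08, limma adjusted p = 0.070), and over the 34 settings it stayed between 0.21 and 0.38 without a call.

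Btg2, also known as Tis21, encodes an antiproliferative protein that marks progenitors at neurogenic divisions. Its homozygous values were 6.24, 6.29, 6.22 and 6.43. All of them lay within the wildtype range of 6.11 to 6.46, which had a median of 6.32. The heterozygous embryos ran from 5.71 to 6.41 with a median of 6.28. The log2 difference of homozygous from wildtype embryos was -0.02 (SE 0.10, 95% interval -0.23 to 0.18, limma adjusted p = 0.95). Its sign turned with the scale of the arrays, to 0.05 after quantile normalization and 0.04 after median centring (limma adjusted p = 0.83 in both).

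**Figure D2:**
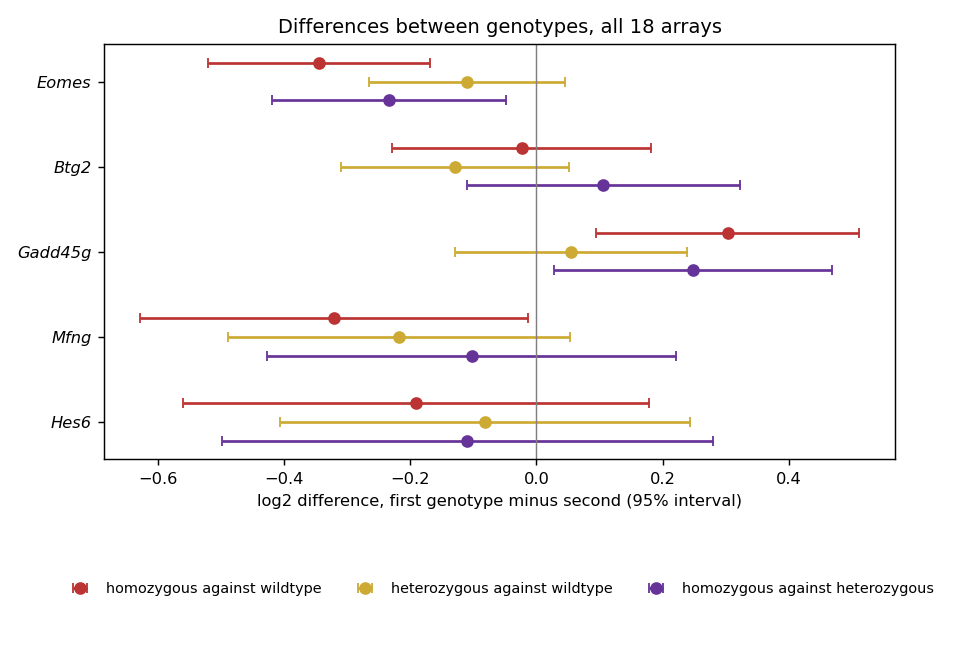
Log2 difference of each marker for the 3 pairs of genotypes, first minus second, with 95% intervals from limma over all 18 arrays. For homozygous against wildtype the intervals of Eomes and Mfng lie below 0 and that of Gadd45g above 0, while those of Btg2 and Hes6 include 0.

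**Figure D3:**
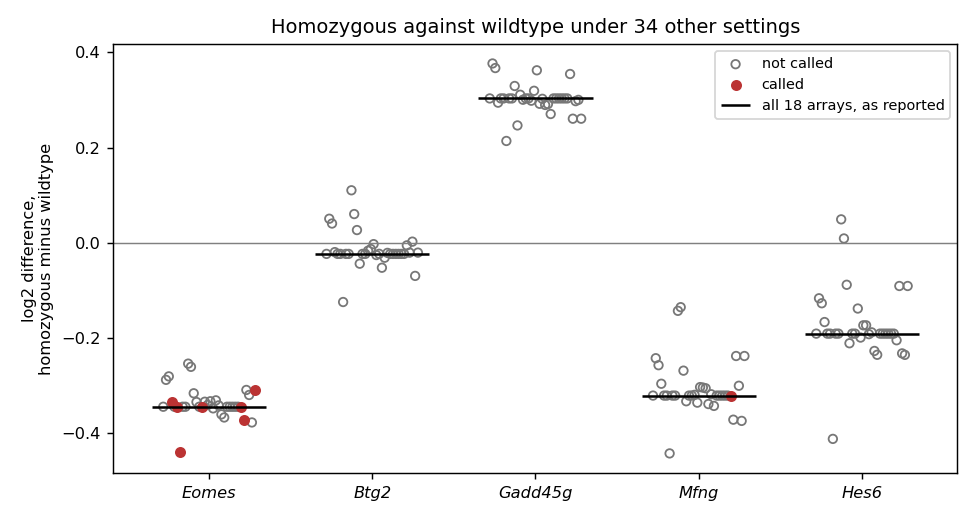
Log2 difference of homozygous from wildtype embryos under 34 other settings (points) beside the value from all 18 arrays (lines). Filled points passed the adjusted p threshold of their setting. Eomes was called in 7 settings, including the same fit read at a threshold of 0.1, and Mfng in 1. The sign held throughout in Eomes, Gadd45g and Mfng.

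The loss of 1 copy was addressed by setting heterozygous against wildtype embryos. None of the 5 markers passed in limma, and 0 had an unadjusted p under 0.05. Over all probe sets 0% passed and 7.47% had an unadjusted p under 0.05. The log2 differences were -0.22 for Mfng (SE 0.13), -0.13 for Btg2 (SE 0.09), -0.11 for Eomes (SE 0.07), -0.08 for Hes6 (SE 0.16) and 0.05 for Gadd45g (SE 0.09). Heterozygous replicate 6 carried much of these: without it they were -0.06 for Mfng, -0.03 for Btg2, -0.04 for Eomes, 0.10 for Hes6 and 0.03 for Gadd45g. This comparison shares the wildtype arrays with the one above. From all arrays the 95% interval of Eomes, -0.27 to 0.05, includes no difference.

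The markers were also set between homozygous and heterozygous embryos, a comparison that shares the homozygous arrays with the first. None of 5 passed in limma, against 0.03% of all probe sets, and 2 had an unadjusted p under 0.05, against 8.53%. These were Eomes, with a log2 difference of -0.23 (SE 0.09, limma adjusted p = 0.49), and Gadd45g, with 0.25 (SE 0.11, limma adjusted p = 0.54). With heterozygous replicate 6 included the groups overlapped in all 5 markers, while 0.822% of all probe sets had every homozygous embryo lower and 0.474% every one higher. The other 5 heterozygous embryos ran from 6.77 to 6.96 in Eomes, from 6.02 to 6.28 in Mfng and from 5.72 to 5.95 in Hes6, above all 4 homozygous embryos in these 3 genes, in Mfng by a margin under 0.01. Without that embryo, which was left out for standing apart in these same genes as well, 2.25% of all probe sets separated in this direction. Without that embryo the differences were -0.31 for Eomes (limma adjusted p = 0.11), -0.29 for Hes6 (limma adjusted p = 0.39) and -0.26 for Mfng (limma adjusted p = 0.30). With homozygous replicate 2 left out as well they were smaller, at -0.27 for Eomes (limma adjusted p = 0.33), -0.19 for Hes6 (limma adjusted p = 0.72) and -0.18 for Mfng (limma adjusted p = 0.65).

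A straight line through 0, 1 and 2 mutant copies gave slopes of -0.16 per copy for Eomes (SE 0.04, limma adjusted p = 0.065), -0.17 for Mfng (SE 0.07, limma adjusted p = 0.25) and 0.14 for Gadd45g (SE 0.05, limma adjusted p = 0.17). Those of Hes6 and Btg2 were -0.09 (SE 0.08) and -0.03 (SE 0.05). None of the 5 passed, against 0.678% of all probe sets, and 3 had an unadjusted p under 0.05, against 15.7%. The slope of Eomes passed without heterozygous replicate 6 (-0.16, limma adjusted p = 0.0310) and without wildtype replicate 7 (-0.17, limma adjusted p = 0.0449), but not without both embryos that stood apart (-0.13, limma adjusted p = 0.11). With both left out, the slopes of Mfng, Gadd45g, Hes6 and Btg2 were -0.11, 0.11, -0.02 and -0.01.

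The markers also varied between embryos of 1 genotype. Heterozygous replicate 6 was the lowest heterozygous embryo in 4 of the 5, by 0.90 below its genotype mean in Hes6, 0.79 in Mfng, 0.47 in Btg2 and 0.38 in Eomes. In Gadd45g it was the highest heterozygous embryo, 0.14 above the mean. Homozygous replicate 2 was the lowest homozygous embryo in Eomes, Mfng and Hes6 and the highest in Gadd45g, with smaller deviations. It differed from heterozygous replicate 6 in Btg2, where it lay within 0.01 of its genotype mean, and in Insm1, where it lay 0.23 above that mean. The part of the hypoxia genes in these values was not tested, beyond fits of the genotype differences with the hypoxia list as covariate.

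**Figure D4:**
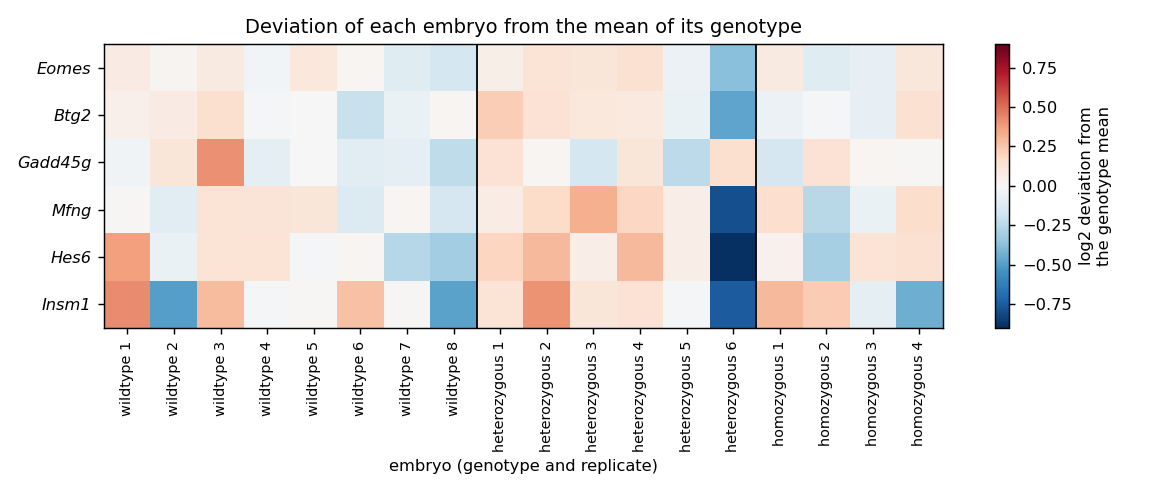
Log2 deviation of each embryo (columns) from the mean of its genotype for the 5 markers and Insm1 (rows). Heterozygous replicate 6 is low in every row but that of Gadd45g, where it lies 0.14 above its mean.

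Relations across embryos were computed on these deviations, so that the genotype difference itself did not enter, for 10 pairs of markers and for Insm1 with each marker. Of the 15 relations 4 passed a two-sided permutation test within genotype after Benjamini-Hochberg adjustment. The share of all pairs of probe sets that would pass was not computed, so this count has no reference. Eomes and Hes6 had a Pearson r of 0.89 (permutation p = 0.00037, adjusted p = 0.00532) and a Spearman rho of 0.66 (permutation p = 0.00664, adjusted p = 0.042) over 18 embryos. Eomes and Mfng had an r of 0.88 (permutation p = 0.00071, adjusted p = 0.00532) and a rho of 0.87 (permutation p = 0.0002, adjusted p = 0.003). Mfng and Hes6 had an r of 0.84 (permutation p = 0.00892, adjusted p = 0.0446) with a rho of 0.62 (permutation p = 0.0148, adjusted p = 0.056), and Eomes and Btg2 an r of 0.77 (permutation p = 0.0126, adjusted p = 0.0473) with a rho of 0.66 (permutation p = 0.0084, adjusted p = 0.042).

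These relations rested in part on the embryos that stood apart. Leaving out the 2 embryos farthest from the median of the first gene gave an r of 0.68 for Eomes and Hes6, 0.69 for Eomes and Mfng, 0.46 for Mfng and Hes6 and 0.55 for Eomes and Btg2. Without heterozygous replicate 6 and homozygous replicate 2, 0 of 15 passed the permutation test after adjustment, and 4 had an unadjusted p under 0.05. Eomes and Hes6 then had an r of 0.65 (permutation p = 0.0104, adjusted p = 0.11) and Eomes and Mfng of 0.62 (permutation p = 0.0216, adjusted p = 0.11). Eomes and Btg2 had an r of 0.41 (permutation p = 0.142, adjusted p = 0.27) and Mfng and Hes6 of 0.27 (permutation p = 0.356, adjusted p = 0.45). All values of 1 embryo come from the same array and share its scale, and after median centring 2 of the relations passed, Eomes with Mfng (r = 0.81) and Eomes with Hes6 (r = 0.76).

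Gadd45g went with none of the other markers over all 18 embryos, with r between -0.19 and 0.16 (permutation p between 0.505 and 0.927). Without both embryos that stood apart its r was 0.64 with Btg2 (permutation p = 0.0163, adjusted p = 0.11) and 0.50 with Eomes (permutation p = 0.0688, adjusted p = 0.21). Insm1 had an r of 0.65 with Hes6 (permutation p = 0.0174, adjusted p = 0.052) and of 0.61 with Eomes (permutation p = 0.0246, adjusted p = 0.053), against 0.03 with Gadd45g (permutation p = 0.91, adjusted p = 0.93). Without the 2 embryos farthest from the median of Insm1 these were 0.42, 0.42 and 0.34.

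The genes whose log2 values were most like each marker over the 18 arrays were sought among 6649 other probe sets with 1 symbol and a mean of at least 3. For Eomes they were Maco1, Pelp1 and Cog1, with Pearson r between 0.94 and 0.95, and 0.90 to 0.92 without both embryos that stood apart. For Mfng they were Plekhm1, Mknk2 and Mtmr4 (0.94 to 0.95), for Hes6 Fam20c, Rbmxl1 and Crip2 (0.92 to 0.93), and for Btg2 Rxrb, Myg1 and Dolpp1 (0.90 to 0.93). Without those embryos the r of these last 9 genes lay between 0.68 and 0.79. For Gadd45g they were Dmwd, Slc27a1 and Ndrg2 (0.82 to 0.84, and 0.77 to 0.85 without them). These are descriptions of the highest among many values. On the deviations from the genotype mean, Eomes had an r of 0.90 with Maco1, 0.91 with Pelp1 and 0.88 with Cog1. Its r with Hes6 (0.89) and Mfng (0.88) was of the same size. The 3 genes were picked as the most like Eomes among 6649, and the share of probe sets with such an r was not computed. Whether such values are particular to the markers is therefore not known.

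Other genes of neurogenic progenitors were read from a list of 14, of which 12 were measured. In homozygous against wildtype embryos 3 of the 12 passed with a lower mean and 0 with a higher one (limma). Over all probe sets 0.504% passed lower and 0.06% higher. The mean was lower in 8 of the 12 and higher in 4, with a median of -0.24. The log2 level of Neurod4, which encodes a proneural factor, fell by 1.28 (SE 0.21, limma adjusted p = 0.00573) to a mean of 1.35, near the floor of the arrays. Nhlh1, whose product acts in young neurons, fell by 0.69 (SE 0.11), and Cux2, a homeobox gene of the subventricular zone and upper layers, fell by 0.44 (SE 0.07, limma adjusted p = 0.00526). In all 3 the homozygous embryos lay below the wildtype embryos, which held for 2.21% of all probe sets. All 3 passed without both embryos that stood apart as well, against 0.474% of all probe sets called lower.

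The remaining 9 did not pass. Neurog2, the main proneural factor of the cortex, differed by 0.20 (SE 0.14), and by 0.041 (SE 0.10) without both embryos that stood apart. Neurog1, a related proneural factor, differed by -0.42 (SE 0.18), and by -0.33 (SE 0.14) without them. The Notch ligand genes Dll1 and Dll3 differed by 0.18 (SE 0.10) and 0.29 (SE 0.09, limma adjusted p = 0.12). Without both embryos that stood apart they passed, at 0.26 (limma adjusted p = 0.0394) and 0.37 (limma adjusted p = 0.0339). Over all probe sets 0.06% were then called higher. Unc5d, a netrin receptor gene of the subventricular zone, differed by -0.42 (SE 0.16), Nhlh2 by -0.33 (SE 0.09), Cux1 by -0.13 (SE 0.07), Rhbdl3 by 0.01 (SE 0.14) and Penk by -0.16 (SE 0.14). Without both embryos these 5 differed by -0.33, -0.25, -0.095, 0.031 and -0.025, in the same order.

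**Figure D5:**
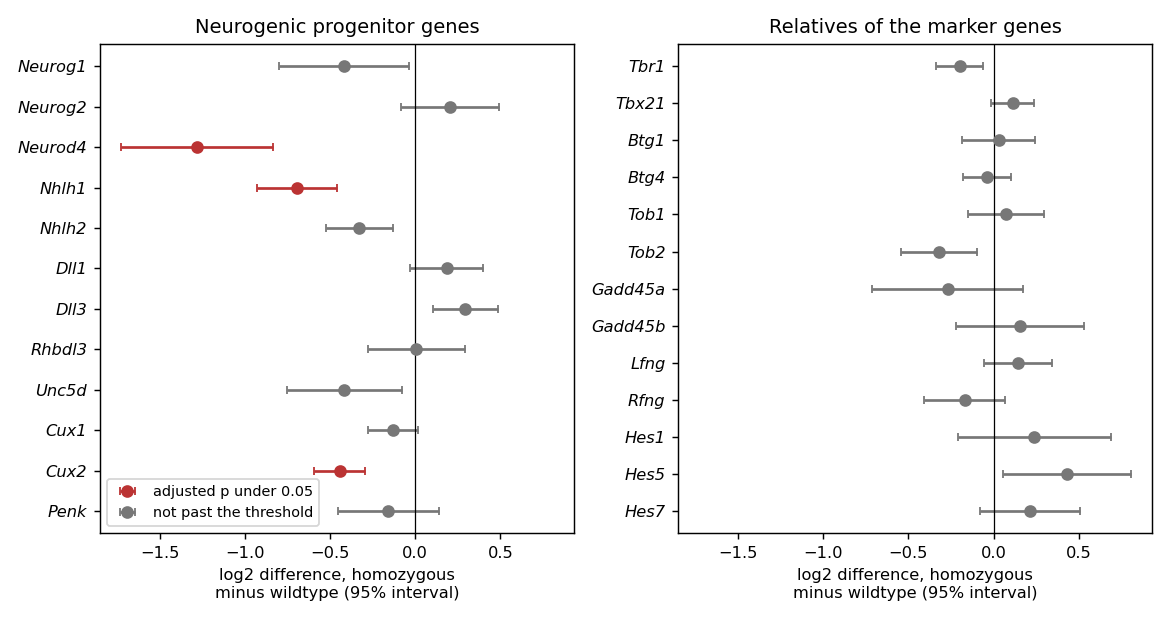
Log2 difference of homozygous from wildtype embryos with 95% intervals from limma, for 12 other genes of neurogenic progenitors (left) and 13 relatives of the markers (right). Neurod4, Nhlh1 and Cux2 passed over all probe sets, and no relative did.

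Of 16 relatives of the markers 13 were measured, and none passed in homozygous against wildtype embryos (limma), with a median of 0.07 from all arrays and -0.0077 without both embryos that stood apart. The unadjusted p was under 0.05 for 3 of them, Tbr1, Tob2 and Hes5, against 15.3% of all probe sets. Tbr1, the T-box factor that follows Eomes in new neurons, differed by -0.20 (SE 0.07, limma adjusted p = 0.15). Gadd45a and Gadd45b, the family members of Gadd45g, differed by -0.27 (SE 0.21) and 0.15 (SE 0.18). Both signs turned without the embryos that stood apart, to 0.029 (SE 0.15) and -0.051 (SE 0.09). Lfng and Rfng, the other fringe enzymes, differed by 0.14 (SE 0.10) and -0.17 (SE 0.11), and Btg1 by 0.03 (SE 0.10). Without both embryos these were 0.078, -0.11 and -0.0077. The Notch targets Hes1 and Hes5, which Hes6 is related to, differed by 0.24 (SE 0.21) and 0.43 (SE 0.18). Without both embryos that stood apart these were -0.14 and 0.09.

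Lists for the cells on either side of the basal progenitor gave the setting of these values. Of 15 measured genes of apical progenitors 0 passed in limma in homozygous against wildtype embryos, and 10 had a higher mean, with a median of 0.12. An unadjusted p under 0.05 occurred in 4. For this and the lists below, the share of all probe sets with such a p was 15.3%. Homozygous replicate 2 had the highest mean over this list (6.58, against 6.31 to 6.42 in the other homozygous embryos), and without both embryos that stood apart the median was 0.065, with 8 of 15 higher, 0 passing in limma and 3 at an unadjusted p under 0.05. The smallest p-values were those of Veph1 (0.32, SE 0.07, limma adjusted p = 0.0501) and Lhx2 (-0.21, SE 0.05, limma adjusted p = 0.061). Veph1 had means of 1.20 in wildtype and 1.52 in homozygous embryos, near the floor of the arrays. Of 17 measured genes of cortical neurons 6 passed with a lower mean (limma), against 0.504% of all probe sets. The median was -0.33, and the mean was lower in all 17, against 59.1% of all probe sets. Ina, a neuronal intermediate filament gene, fell by 0.57 (SE 0.09, limma adjusted p = 0.0043) and Elavl2, a neuronal RNA-binding protein gene, by 0.33 (SE 0.06, limma adjusted p = 0.022). Without both embryos the median was -0.31 and the mean still lower in all 17, but only 2 of them passed, against 0.474% of all probe sets called lower. These were Ina (limma adjusted p = 0.0237) and the axonal adhesion gene Cntn2 (limma adjusted p = 0.0375), while Elavl2 did not pass (limma adjusted p = 0.069). Cntn2 was named after its value was seen. Of the Notch pathway 0 of 17 passed in limma (median -0.03, 4 with an unadjusted p under 0.05, the smallest in Maml1 at -0.35, SE 0.10, and in Dll3), of S phase 0 of 14 (median -0.06, 1 such gene) and of G2 and M phase 0 of 15 (median -0.09, 2 such genes). The mean was lower in 10 of 17, 10 of 14 and 14 of 15 of these genes, beside the 59.1% of all probe sets. Without both embryos it was lower in 11, 11 and 12. In the Notch pathway the 2 ligand genes Dll1 and Dll3 then passed, as above, against 0.06% of all probe sets called higher. For other regions and cell types the median was -0.13 in ventral telencephalon, -0.03 in cortical hem and choroid plexus and 0.01 in meninges. It was 0.12 in erythroid, -0.02 in endothelial and 0.01 in microglial genes. In these lists 0 genes were called in limma. Without both embryos that stood apart these medians were -0.11, -0.05, -0.00074, 0.13, -0.06 and 0.00042, again with 0 genes called. The counts that follow are from all arrays. An unadjusted p under 0.05 occurred in 1 erythroid, 3 endothelial and 1 microglial gene. Smallest among the endothelial genes were those of Cdh5 (-0.45, SE 0.12, limma adjusted p = 0.082) and Tie1 (-0.24, SE 0.08, limma adjusted p = 0.15). In that list the mean was lower in 7 genes and higher in 4. In the same order the mean log2 signal of an embryo over the genes of the list ran from 1.69 to 2.32, 3.34 to 4.26, 1.09 to 1.22, 3.97 to 4.40, 1.84 to 2.11 and 0.98 to 1.15 in wildtype embryos. In heterozygous embryos they ran from 1.78 to 2.45, 3.18 to 4.06, 1.07 to 1.29, 3.93 to 4.24, 1.86 to 2.04 and 0.88 to 1.17, and in homozygous embryos from 1.75 to 1.89, 3.49 to 4.05, 1.05 to 1.23, 4.03 to 4.51, 1.86 to 2.05 and 1.00 to 1.14. Their part in the differences of the markers was not tested, beyond a fit with the ventral list as covariate, in which Eomes differed by -0.32 (limma adjusted p = 0.12).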

How the data were processed

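The authors deposited a log2 signal for each array and transcript-level probe set, computed with RMA (background correction, quantile normalization across arrays and probe summary) in Affymetrix Expression Console 1.1, per the submitters' processing notes. Replicates were not pooled. The number of arrays limits the precision.

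Probe sets with an identifier of 6700000 or above (16661 of 23238) were used, and gene names came from the platform annotation (14939 with 1 symbol, 989 with several, 733 with none). For a gene with several probe sets the one with the highest mean was taken. Embryos were grouped by labelled genotype. With limma 3.58.1 (R 4.3.3; lmFit, eBayes, two-sided, no filter) a model of genotype means, and another with a slope per mutant copy, was fitted on the 18 arrays. P-values were adjusted by Benjamini-Hochberg across these 16661 probe sets, at a threshold of 0.05. Alternatives covered the prior, scale, array weights, filter, block, covariates, threshold and each array left out. Relations across embryos used 100000 permutations within genotype. The limma procedure was also run on simulated data with independent normal values for each probe set. These held no differences in scale between arrays and no embryos that stood apart. That run therefore does not bear on how the calls changed with the arrays. Named genes were drawn from the 5 markers, Insm1, the measured relatives, the 3 most similar genes per marker and, of each further list, the 2 with the smallest p. Genes of the neurogenic progenitor list beyond these, and Lhx2, Emx2 and Pax6, were named as list members after their values were seen. Eif2s3y, which is in no list, was also named after its values were seen. The members, lists and alternatives were chosen with earlier results of these data known.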

Additional observations from a re-analysis of the deposited data

Results flagged for a closer look

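In a group of 6 embryos, heterozygous replicate 6 stood far below the others in 3 of the 5 markers and in Insm1, by the size of its gap to the nearest embryo relative to the range of the group (Dixon's criterion at 95%). Its Eomes level was 6.44, against 6.77 in the next heterozygous embryo. Its Mfng level was 5.17, against 6.02, and its Hes6 level was 4.76, against 5.72. Its Insm1 level was 4.02, against 4.76. In all, 18 groups were checked and 4 were marked, all in this embryo, where chance marks about 5% of groups. The groups of different genes come from the same arrays, so the 4 marks of this embryo are not independent. The same embryo had the lowest 75th percentile (4.50) and a mean of 4.85 over the hypoxia response genes, against 3.36 to 3.52 in the other heterozygous embryos. The part of these in its marker levels was not tested, beyond fits of the genotype differences with the 75th percentile or the hypoxia list as covariate.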

How the results depend on the processing

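The 4 homozygous arrays limit the precision. The number of markers called in homozygous against wildtype embryos was 0 and became 1 (Eomes) with array weights (adjusted p = 0.0489), with only the groups compared (adjusted p = 0.0345), at a threshold of 0.1 and without both embryos that stood apart, all in limma; it ranged from 0 to 2 when each array was left out (Eomes and Mfng without heterozygous replicate 6, Eomes without homozygous replicate 1). For the slope it was 1 at a threshold of 0.1 and ranged from 0 to 1 when each array was left out (Eomes without wildtype replicate 7 or heterozygous replicate 6). No marker was called in the other comparisons under any setting.

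The labels do not say whether replicate numbers pair the embryos. Over 14 pairs of arrays with the same number in different genotypes, deviations correlated between -0.21 and 0.22 (median 0.02). Whether these values differ from those of other pairs was not tested. With a replicate block 1 marker was called in homozygous against wildtype embryos (Eomes, -0.44, limma adjusted p = 0.036) and 1 for the slope (Eomes, -0.21, limma adjusted p = 0.027), and the probe sets called were 361 for homozygous against wildtype, 1 against heterozygous and 536 for the slope.

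The probe sets called in homozygous against wildtype embryos (94) became 158 after quantile normalization, 142 after median centring, 146 without the lowest probe sets by mean, 173 with the 75th percentile and 62 with the ventral list as covariate, 33 at a threshold of 0.01 and 383 at 0.1, and ranged from 36 (without homozygous replicate 2) to 394 (without homozygous replicate 1) when each array was left out, with 37 without homozygous replicate 3, 369 without heterozygous replicate 6, and 62, 60 and 188 without wildtype replicates 1, 3 and 7. In homozygous against heterozygous embryos they went from 5 to 21 after quantile normalization, 13 after median centring, 3 with array weights, 2 with only the groups compared, 26 with the 75th percentile as covariate and 9 at a threshold of 0.1, ranging from 1 (without homozygous replicate 4) to 31 (without homozygous replicate 1) when each array was left out. For the slope they went from 113 to 74 after median centring, 58 in the whole table, 61 with the hypoxia list and 58 with the ventral list as covariate, 31 at a threshold of 0.01, 456 at 0.1 and 75 without both embryos, ranging from 33 (without homozygous replicate 3) to 255 (without wildtype replicate 7) when each array was left out. The cause was not tested.

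The sign of uncalled differences turned in Btg2 and Hes6. Homozygous against wildtype, Btg2 was 0.051 after quantile normalization, 0.041 after median centring, 0.11 with the 75th percentile, 0.060 with the hypoxia list and 0.03 with the ventral list as covariate, and ran from -0.069 to 0.0025 (without homozygous replicate 3) when each array was left out, and Hes6 was 0.049 with the 75th percentile and 0.0091 with the hypoxia list. Heterozygous against wildtype, Hes6 was 0.038 with array weights, 0.19 with the 75th percentile, 0.046 with the hypoxia list and 0.10 without both embryos, and ran from -0.14 to 0.10 (without heterozygous replicate 6) when each array was left out, and Btg2 was 0.022 with the 75th percentile. Homozygous against heterozygous, Hes6 was 0.034 with the ventral list. For the slope, Btg2 was 0.013 after quantile normalization, 0.0092 after median centring, 0.054 with the 75th percentile and 0.019 with the hypoxia list, and Hes6 was 0.031 with the 75th percentile and 0.0089 with the hypoxia list. Relations past the threshold went from 4 to 2 after median centring and to 0 without both embryos. Their sign turned after median centring for Eomes and Gadd45g (-0.10), Btg2 and Gadd45g (-0.037) and Insm1 and Gadd45g (-0.050), and without both embryos for Gadd45g and Mfng (0.20), Gadd45g and Hes6 (0.48) and Insm1 and Btg2 (-0.18).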
